A study of Mus musculus with 2 samples.

Results

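The genes described here are the extracellular and membrane metalloproteases of the ADAM, ADAMTS and MMP families, the ADAMTS-like proteins, and the protease inhibitors of the TIMP family with Reck. They were chosen by gene symbol alone, as every probe set whose platform annotation gives 1 symbol of these families. This gave 71 genes read by 125 probe sets, of 18193 genes read by 34945 single-symbol probe sets on the array. There were 28 ADAM, 15 ADAMTS, 5 ADAMTS-like and 18 MMP genes, with 4 TIMP genes and Reck. Family members without such a probe set were not analysed here.

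The RNA came from whole limb buds of mouse embryos at E10.5, from Bhlha9 knockout embryos in 1 sample and from wild-type embryos in the other, both of the C57BL/6 strain. The protein made from Bhlha9 is a transcription factor with a basic helix-loop-helix domain, active in the limb bud. The sources used here do not give the knockout allele, the number of embryos per RNA or the mixture of fore and hind limb buds. The question is how the early limb bud transcriptome differs without this gene. With 1 array per genotype there was no test of the genotype, genotype and array or dissection cannot be told apart, and "higher" and "lower" describe these 2 arrays only.

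Metalloproteases of these families hold a zinc ion in their active site and are made as inactive precursors. MMPs, some secreted and some anchored in the membrane, cut collagens, other matrix proteins and each other's precursors. ADAMs sit in the cell membrane and release the outer parts of other membrane proteins, among them Notch and ligands of the EGF receptor. ADAMTS proteases are secreted, and several of them cleave the large proteoglycans versican and aggrecan. TIMPs bind the active site of these enzymes, and Reck is a membrane-anchored inhibitor. In the embryonic limb the cleavage of versican by ADAMTS proteases takes part in the loss of the webs between the digits, at a stage later than the one sampled here.

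Signals were on the linear scale of the deposited tables, in arbitrary units. A signal under the 40th percentile of its own array was treated as not detected; this floor was 41.8 on the knockout array and 41.2 on the wild-type array. Each gene was read from its probe set with the highest mean signal, and log2 ratios were taken as knockout minus wild type. The median signal was 77.3 on the knockout array and 79.6 on the wild-type array. The 5440 genes with a pair or more of probe sets detected on both arrays gave an SD of 0.28 for 1 log2 ratio, which is measurement error within these arrays and leaves out the spread between embryos. Signals of different probe sets are not comparable with each other, so each ratio sets a probe set against itself on the other array. Summed signals of gene lists are given as a rough guide only, since they follow the brightest probe sets of a list. The probe set of Bhlha9 read 1.70 on the knockout array and 7.87 on the wild-type array, both under the floor, and so does not check the labels.

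Of the 71 genes, 38 were above the floor on both arrays, 6 on the knockout array alone, 0 on the wild-type array alone, and 27 on neither. Of all 18193 genes, 11491 were above it on both arrays and 5105 on neither. Among the 44 detected on at least 1 array, 1 was at least 2-fold higher in knockout (Adamts18) and 4 were at least 2-fold lower (Mmp2, Adamts4, Adamts5 and Adamtsl2), or 11.4% in all. Over the whole array, 13088 genes were detected by the same rule, and 6.8% of them passed 2-fold, 4.15% as higher and 2.65% as lower in knockout. At 1.5-fold, 2 members were higher and 9 lower, beside 11.2% higher and 11.7% lower of all genes. Of the 38 members detected on both arrays, 25 had a lower signal in knockout and 13 a higher one, and their median log2 ratio was -0.20. Over all 11491 genes detected on both arrays 50.9% were lower and the median was -0.01. The 6 members above the floor in knockout alone could only have positive ratios and are left out of that median.

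**Figure D1:**
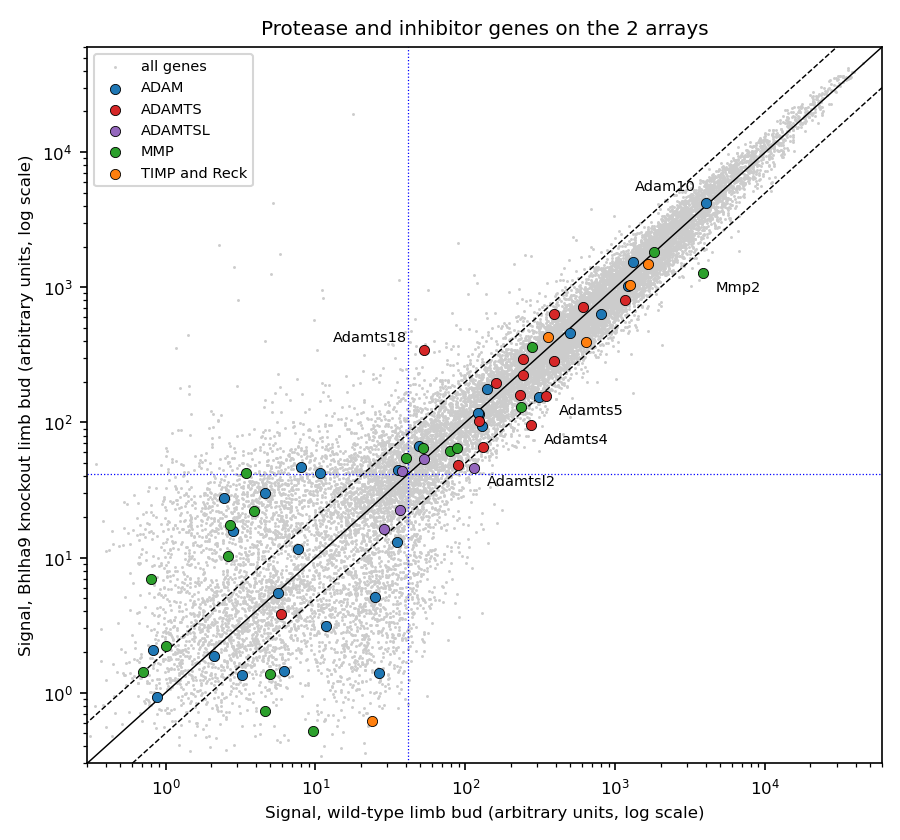
Signal of each gene on the Bhlha9 knockout array (vertical axis, arbitrary units, log scale) against the wild-type array (horizontal axis, same units). Coloured points are the 71 genes by family, grey points all genes, the solid line equal signals, the dashed lines 2-fold differences and the dotted lines the floors of 41.8 and 41.2; Mmp2 lies well below the lower dashed line and Adamts18 well above the upper one.

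The gelatinase Mmp2 was lower in knockout. Mmp2 degrades denatured and basement membrane collagen and is made by mesenchymal cells. Its brightest probe set read 1279.85 in knockout limb buds and 3869.7 in wild-type limb buds, a log2 ratio of -1.60, or 3.02-fold lower. Another probe set read 1495 in knockout and 3252 in wild type, a ratio of -1.12, or 2.18-fold lower. Both differences were several times the measurement SD of 0.28, and all 4 signals were far above the floor. With the genes detected on both arrays divided by mean signal into 5 equal bins, Mmp2 lies in the highest bin, in which 21 of 2298 genes (0.914%) differed by 2-fold or more. Less RNA per cell and fewer cells that make it cannot be told apart in whole tissue.

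Among the partners that activate Mmp2 at the cell surface, Mmp14, the membrane-anchored MMP that cuts the Mmp2 precursor, read 1814 in knockout and 1824 in wild type by its brightest probe set, a log2 ratio of -0.01. Its other 2 probe sets had ratios of -0.28 and -0.19. Timp2, which bridges Mmp14 and the Mmp2 precursor besides inhibiting MMPs, read 1036 in knockout and 1243 in wild type, a ratio of -0.26, and its 4 other detected probe sets were lower too, with ratios of -0.31 to -1.61. Mmp16, which can also activate the Mmp2 precursor, was at -0.85 by its brightest probe set.

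The other gelatinase, Mmp9, known from osteoclasts and leukocytes, was at the edge of detection. It read 55.0 in knockout and 40.4 in wild type, where it was under the floor, so it was at least 1.33-fold higher. Its other probe set was not detected, at 11.5 in knockout and 6.13 in wild type.

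All 5 membrane-anchored MMPs were detected on both arrays, and 4 of them had a lower signal in knockout, Mmp14 by less than the measurement SD. Mmp16, a transmembrane MMP, read 130 in knockout and 234 in wild type, a log2 ratio of -0.85. Its 2 further detected probe sets went the same way, one from a pair of signals well above the floor (145 in knockout and 188 in wild type, -0.37) and one with a knockout signal next to the floor (43.3 in knockout and 145 in wild type, -1.75). Mmp17, anchored by a lipid, read 61.0 in knockout and 78.6 in wild type (-0.37). Mmp23 read 64.8 in knockout and 88.3 in wild type (-0.45), and its other probe set was under the floor in knockout and at least 1.74-fold lower. Mmp24, known from neurons, read 65.0 in knockout and 52.2 in wild type (0.32), but its other probe set was under the floor in knockout and at least 1.80-fold lower. Mmp17, Mmp23 and Mmp24 lie in the lowest of the 5 signal bins, where 11.4% of all genes differed by 2-fold or more.

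Mmp11, the stromelysin that furin activates inside the cell, read 360.4 in knockout and 278 in wild type, a log2 ratio of 0.37. It was the single MMP outside the membrane-anchored group and Mmp2 that was above the floor on both arrays.

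The remaining MMPs were not detected, or barely so. Of 18 MMP genes 9 were under the floor on both arrays, with signals up to 22.02 in knockout and 9.61 in wild type. They comprised the 4 collagenases Mmp1a, Mmp1b, Mmp8 and Mmp13, the stromelysin Mmp3, the matrilysin Mmp7, the macrophage elastase Mmp12, the enamel protease Mmp20, and Mmp19. Mmp10 read 42.1 in knockout, just over the floor, and 3.47 in wild type. Mmp13 is a marker of hypertrophic cartilage and Mmp8 of neutrophils. Of 12 macrophage and neutrophil markers 9 were above the floor on at least 1 array, with 0 past 2-fold and summed signals of 1139 in knockout and 1292 in wild type. They were divided, with 2 higher and 3 lower at 1.5-fold. Elane, under the floor in wild type, was at least 1.83-fold higher, a bound that does not tell whether it passed 2-fold.

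Of the undetected or barely detected MMPs, 9 are neighbours on mouse chromosome 9 (Mmp13, Mmp12, Mmp1b, Mmp3, Mmp1a, Mmp10, Mmp8, Mmp20 and Mmp7), and most of their promoters shared a layout. Many MMPs of this cluster are known as inducible genes with an AP-1 site close to a TATA box. RefSeq promoter windows of the GRCm38.p6 assembly were searched over the 250 bases before each annotated start, on both strands, for the AP-1 letters TGANTCA and the TATA letters TATAAA. Both motifs were found for 7 of the 9 genes, the exceptions being Mmp8 with neither and Mmp12 with AP-1 letters alone, at another annotated start. By window, 7 of the 11 cluster windows held both, and the further annotated starts of Mmp7 and Mmp12 did not. Among 32851 windows of all annotated genes, 6.75% held the AP-1 letters, 12.4% the TATA letters and 1.21% both. Of the 36 windows of the 33 other members with a window, 2 held the AP-1 letters and 0 both. The last 110 bases before the start are shown 5′ to 3′ for the 7 genes with both motifs, since these carry the shared layout, with AP-1 and TATA letters in capitals. The windows are chr9:7272404-7272513, plus strand for Mmp13, chr9:7388027-7388136, minus strand for Mmp1b, chr9:7445712-7445821, plus strand for Mmp3, chr9:7464031-7464140, plus strand for Mmp1a, chr9:7502232-7502341, plus strand for Mmp10, chr9:7628121-7628230, plus strand for Mmp20 and chr9:7691980-7692089, plus strand for Mmp7.
Mmp13: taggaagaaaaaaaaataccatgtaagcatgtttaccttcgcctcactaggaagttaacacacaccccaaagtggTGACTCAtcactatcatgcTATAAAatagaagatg
Mmp1b: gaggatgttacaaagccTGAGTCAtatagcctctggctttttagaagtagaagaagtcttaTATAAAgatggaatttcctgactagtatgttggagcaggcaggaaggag
Mmp3: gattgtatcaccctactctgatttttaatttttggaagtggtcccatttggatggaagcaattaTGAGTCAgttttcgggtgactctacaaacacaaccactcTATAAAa
Mmp1a: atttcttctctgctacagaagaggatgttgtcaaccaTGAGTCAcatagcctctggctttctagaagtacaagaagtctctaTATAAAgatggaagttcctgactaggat
Mmp10: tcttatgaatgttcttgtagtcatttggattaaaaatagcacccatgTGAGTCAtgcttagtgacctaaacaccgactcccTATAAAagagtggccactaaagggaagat
Mmp20: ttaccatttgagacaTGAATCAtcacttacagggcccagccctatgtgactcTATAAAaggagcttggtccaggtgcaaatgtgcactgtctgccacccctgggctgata
Mmp7: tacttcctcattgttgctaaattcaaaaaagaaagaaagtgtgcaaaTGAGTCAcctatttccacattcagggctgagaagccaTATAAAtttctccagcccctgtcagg
The AP-1 letters of these genes begin between 35 and 95 bases before the start and stand upstream of the nearest TATA letters in each of the 7. A match of letters is a description of the sequence and says nothing of a factor bound there.

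Nearly all ADAMTS genes were detected. Of 15 genes, 14 were above the floor on both arrays, 5 with a higher and 9 with a lower knockout signal, with a median log2 ratio of -0.36. Past 2-fold were 1 higher and 2 lower. Of all 18193 genes, 11491 were above the floor on both arrays, and 50.9% of these were lower. Past 2-fold were 4.15% of all detected genes as higher and 2.65% as lower. Adamts8 alone was under the floor, at 3.81 in knockout and 5.90 in wild type.

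Among the 7 proteoglycan-cleaving ADAMTS genes, Adamts5 was lower by every probe set above the floor. Adamts5 cleaves aggrecan and versican and acts with Adamts9 and Adamts20 in the regression of interdigital webs in the mouse. Its 3 probe sets read 157, 119 and 43.8 in knockout, against 345, 221 and 126 in wild type. The log2 ratios were -1.13, -0.89 and -1.52, and the first corresponds to 2.19-fold lower. Its remaining probe set was under the floor on both arrays. Adamts1, the neighbour of Adamts5 on chromosome 16 with no protein-coding gene between them, and likewise able to cleave versican, read 800.1 in knockout and 1166 in wild type, a ratio of -0.54.

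Adamts9 and Adamts20 had positive ratios. Adamts9, a versican-cleaving enzyme also found in blood vessels, read 631, 609.8 and 97.2 by its 3 probe sets in knockout, against 392, 263 and 69.0 in wild type. The log2 ratios were 0.69, 1.21 and 0.49, so each probe set was higher and 1 passed 2-fold. Adamts20, whose loss in the mouse gives a white belt in the coat, read 711 in knockout and 604 in wild type, a ratio of 0.24. The 3 web-associated enzymes thus did not share a direction: Adamts5 was lower, Adamts9 higher, and Adamts20 differed by less than the measurement SD.

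Adamts4 was not settled. Its brightest probe set read 95.2 in knockout and 273 in wild type, 2.87-fold lower, and its other probe set read 107 in knockout and 83.2 in wild type, a log2 ratio of 0.36. Adamts15, a further aggrecan- and versican-cleaving enzyme, read 159 in knockout and 229.8 in wild type (-0.53).

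Adamts18 was the member with the highest ratio. It is an ADAMTS protease with few known substrates, needed in the mouse for branching of the lung among other organs. Its brightest probe set read 343 in knockout and 53.1 in wild type, a log2 ratio of 2.69, or 6.45-fold higher. Its other probe sets read 174 in knockout and 43.1 in wild type (2.01), and 89.9 in knockout and 68.1 in wild type (0.40). All 3 probe sets were higher in knockout, but the wild-type signals stood only slightly above the floor of 41.2, so the size of the ratio rests on signals near the limit of detection. When detected genes were divided by mean signal into 5 equal bins, 8.53% of the genes in the bin of Adamts18, Adamts4 and Adamts5 differed by 2-fold or more.

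The other ADAMTS genes stayed within 2-fold. Adamts19 and Adamts7 were the lowest of them, Adamts19 at 65.7 in knockout and 130.2 in wild type (-0.99) and Adamts7, which cleaves cartilage oligomeric matrix protein, at 48.7 in knockout and 88.6 in wild type (-0.87). Adamts12, which cleaves the same substrate, read 226 in knockout and 242 in wild type (-0.10). The fibrillin-associated Adamts10 read 283 in knockout and 388 in wild type (-0.45), and the probe sets of Adamts6 gave ratios of 0.29 and -0.22. Adamts3, a procollagen processing enzyme, was at 0.27 and Adamts16 at -0.27.

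ADAMTS-like proteins lack the protease domain and bind the matrix, in particular fibrillin. Adamtsl2, whose human counterpart is mutated in geleophysic dysplasia, a short-stature disorder with short digits, read 46.3 in knockout and 115 in wild type, a log2 ratio of -1.31, or 2.48-fold lower. It has 1 probe set, and the knockout signal stood next to the floor of 41.8. Adamtsl1 differed by less than the measurement SD, at 54.0 in knockout and 53.3 in wild type. Adamtsl4 read 43.8 in knockout and 37.8 in wild type, where it was under the floor, and Adamtsl3 and Adamtsl5 were under the floor on both.

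**Figure D2:**
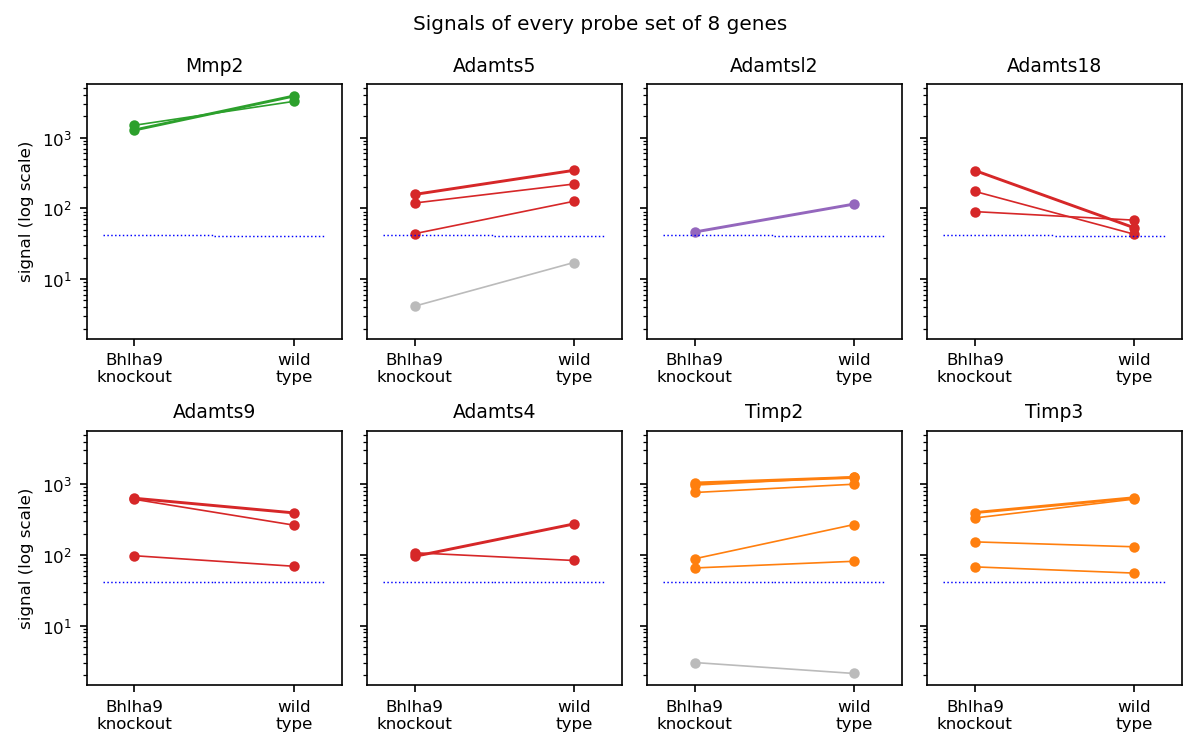
Signals of every probe set of 8 genes on the Bhlha9 knockout array (left point) and the wild-type array (right point), in arbitrary units on a log scale. Lines join the readings of 1 probe set, thick for the brightest and grey where both are under the floor (dotted); all coloured lines of Mmp2 and Adamts5 are lower in knockout, all of Adamts18 and Adamts9 are higher, and those of Adamts4 and Timp3 cross directions.

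The sequence before the start was in the RefSeq table for 42 of the 71 genes, fewer than 80%. Motif counts, such as those beside the MMP cluster, therefore cover only members with a window and not all members. Mmp2, Adamts4 and Adamts5 are not among the 42. Since Bhlha9 belongs to the basic helix-loop-helix factors, a class that binds E-box letters CANNTG, the 250 bases before the start are shown 5′ to 3′ for Adamts18, Adamts9, Adamtsl2 and Timp2, the 4 genes that have a window and differed by 2-fold or more by at least 1 probe set. E-box letters, which read the same on both strands, are in capitals. Their coordinates on GRCm38.p6 are chr8:113848840-113849089, minus strand for Adamts18, chr6:92943535-92943784, minus strand for Adamts9, chr2:27079129-27079378, plus strand for Adamtsl2 and chr11:118355412-118355661, minus strand for Timp2.
Adamts18: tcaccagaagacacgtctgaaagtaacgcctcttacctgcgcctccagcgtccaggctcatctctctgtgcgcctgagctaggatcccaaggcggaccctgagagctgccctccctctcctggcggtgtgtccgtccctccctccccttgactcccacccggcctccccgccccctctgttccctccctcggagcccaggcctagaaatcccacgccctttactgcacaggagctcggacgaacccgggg
Adamts9: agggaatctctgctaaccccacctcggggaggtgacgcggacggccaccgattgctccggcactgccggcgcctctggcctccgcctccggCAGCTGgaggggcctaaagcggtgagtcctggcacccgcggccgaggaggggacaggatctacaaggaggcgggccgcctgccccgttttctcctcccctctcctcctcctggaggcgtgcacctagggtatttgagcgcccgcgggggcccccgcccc
Adamtsl2: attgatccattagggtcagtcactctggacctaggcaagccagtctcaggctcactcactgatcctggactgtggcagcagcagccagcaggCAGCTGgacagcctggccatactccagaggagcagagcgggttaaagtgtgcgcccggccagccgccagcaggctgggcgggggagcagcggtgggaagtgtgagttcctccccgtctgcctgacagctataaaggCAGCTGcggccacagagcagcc
Timp2: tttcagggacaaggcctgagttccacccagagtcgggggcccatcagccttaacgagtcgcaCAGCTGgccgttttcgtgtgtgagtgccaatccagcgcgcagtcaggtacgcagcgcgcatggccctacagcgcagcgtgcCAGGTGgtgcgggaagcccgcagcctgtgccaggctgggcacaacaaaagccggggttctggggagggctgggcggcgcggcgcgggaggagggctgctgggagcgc
The window of Adamts18 held 0 such letters, that of Adamts9 held 1 (CAGCTG), that of Adamtsl2 held 2 (both CAGCTG) and that of Timp2 held 2 (CAGCTG and CAGGTG). E-box letters occurred in 66.2% of all windows of this length, so their presence sets none of these genes apart.

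No ADAM gene above the floor on both arrays differed by 2-fold by its brightest probe set. Of 28 genes 14 were under the floor on both arrays, 11 were above it on both and 3 in knockout alone. Of the 14 detected, 0 were past 2-fold in either direction, beside 6.8% of all detected genes. The ratios of the 3 are lower bounds and could be larger. The median log2 ratio of the 11 was -0.10, with 4 positive and 7 negative ratios, beside 50.9% negative among all genes above the floor on both arrays.

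The sheddases with broad roles had signals far above the floor. Adam10, which cuts Notch receptors and their ligands, read 4187 in knockout and 4009 in wild type, a log2 ratio of 0.06, and 1002 in knockout and 833 in wild type by another probe set (0.27). A dimmer probe set of Adam10 read 58.6 in knockout and was under the floor in wild type, at least 1.42-fold higher. Adam17, which releases TNF and ligands of the EGF receptor, read 1019 in knockout and 1207 in wild type by its brightest probe set (-0.24). Its other 2 probe sets had ratios of -0.61 and -0.64, so that all 3 were lower. Adam9 read 1537 in knockout and 1317 in wild type (0.22). Adam19, needed for heart valve and septum formation, read 637 in knockout and 802 in wild type (-0.33), while its other probe set read 89.1 in knockout and 89.3 in wild type (-0.003).

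Adam15 came closest to 2-fold. It read 155 in knockout and 308 in wild type, a log2 ratio of -0.99, by a probe set of a kind prone to cross-hybridisation, while its other 3 probe sets were under the floor on both arrays. Adam12, expressed in mesenchyme and forming muscle, read 458 in knockout and 502 in wild type (-0.13), with a further probe set under the floor in knockout and at least 1.54-fold lower. Adam8, known from leukocytes, differed by less than the measurement SD, at 118 in knockout and 121 in wild type. Adam33, a mesenchymal ADAM, read 42.2 in knockout, just over the floor, and 10.8 in wild type, and Adam28 was under the floor on both.

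Adam11, Adam22 and Adam23, 3 ADAMs without protease activity that act as adhesion and synaptic proteins of neurons, were all detected on both arrays. Adam22 read 178 in knockout and 139.7 in wild type (0.35), Adam23 read 116 in knockout and 124 in wild type (-0.10), and Adam11 read 94.8 in knockout and 129.6 in wild type (-0.45). None of the 3 passed 2-fold, while all 9 neural tube and neuron markers were at least 2-fold higher in knockout, 4 of them under the floor in wild type, with summed signals of 3508 in knockout and 510.1 in wild type.

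The ADAMs of the germ line and reproductive tract were mostly silent. Of 16 such genes 13 were under the floor on both arrays. The exceptions were Adam4, at 66.9 in knockout and 49.2 in wild type (0.44), and the neighbouring genes Adam1a and Adam1b, at 46.7 and 44.4 in knockout and under the floor in wild type. Of 6 testis markers such as the protamines, 0 were above the floor.

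The inhibitors stayed within 2-fold by their brightest probe sets. Timp1, an inhibitor of most secreted MMPs, read 426 in knockout and 355 in wild type, a log2 ratio of 0.26. Timp2 had 5 probe sets above the floor, all lower in knockout, with ratios of -0.26, -0.38, -0.39 and -0.31 for 4 of them and -1.61 for a dimmer one that read 88.1 in knockout and 268 in wild type. Reck, which inhibits Mmp14, Mmp2 and Adam10, read 1484 in knockout and 1661 in wild type (-0.16).

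Timp3 was divided. Timp3 stays bound to the matrix and inhibits Adam17 and ADAMTS proteases besides MMPs. Its 2 brighter probe sets read 396 and 332 in knockout and 642 and 614 in wild type, with log2 ratios of -0.70 and -0.89. Its 2 dimmer ones read 153 and 67.6 in knockout and 130.0 and 55.2 in wild type, with ratios of 0.23 and 0.29. Timp4 was not detected, at 0.613 in knockout and 23.8 in wild type.

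**Figure D3:**
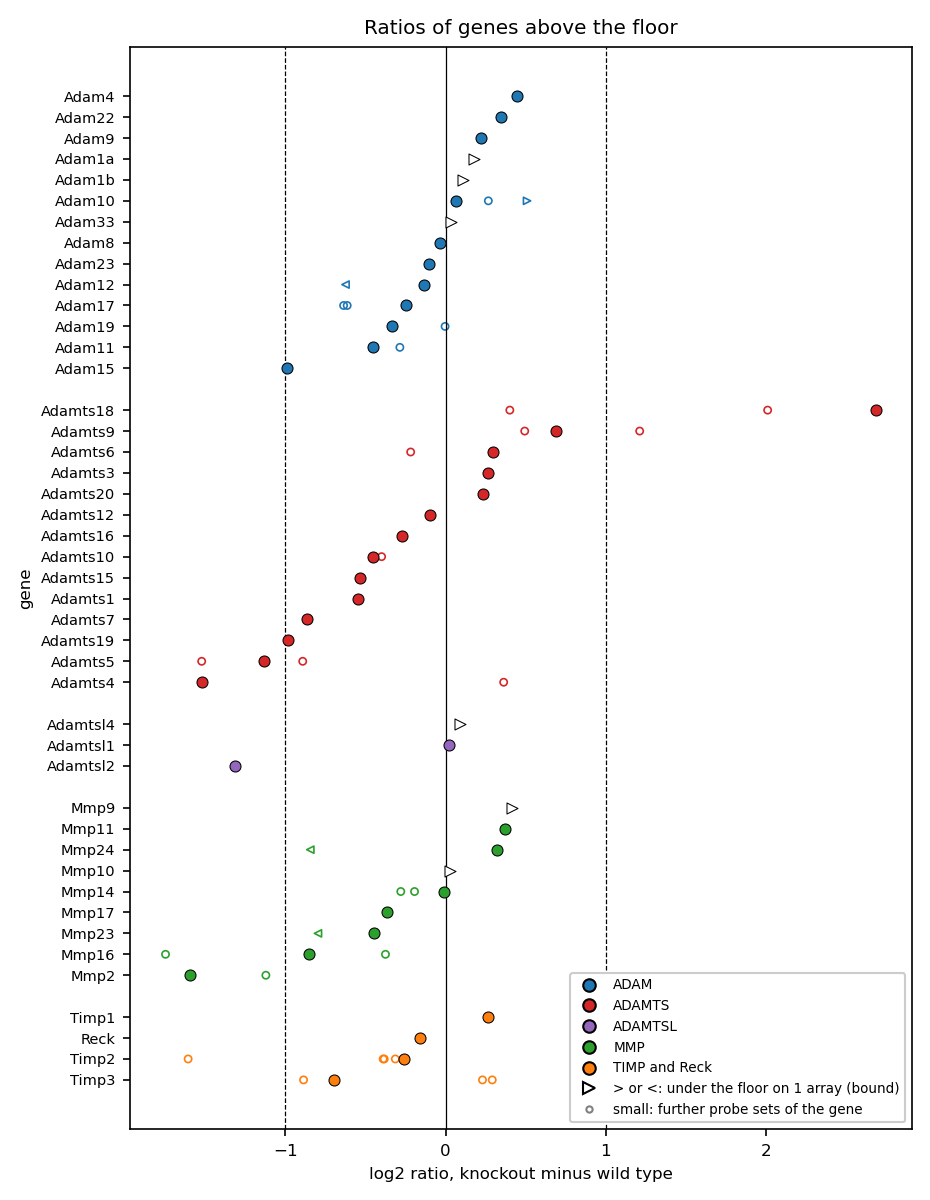
Log2 ratio (knockout minus wild type) of the 44 detected genes, by family. Large points are the brightest probe set of each gene, small points its further probe sets, triangles bounds where 1 array was under the floor, and dashed lines 2-fold differences; 5 large points lie beyond the dashed lines.

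Probe sets of 1 gene agreed in sign for most members. Of 18 members with at least 2 probe sets above the floor, 14 had all of them on the same side and 4 did not (Adamts4, Adamts6, Mmp24 and Timp3). That count takes in probe sets above the floor on 1 array alone. Over all genes with a pair detected on both arrays, the brightest pair had the same sign in 69.4%. The measures differ, so the 14 of 18 is not read as particular to these members. Probe sets of a gene read the same RNA and are not replicates.

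Partners of these proteases were read from lists of activators, substrates and shed proteins. Of all detected genes, 6.8% passed 2-fold, the share to set beside the count of each list. Among 9 ADAMTS substrates, cofactors and relatives, 6 were detected, 0 were at least 2-fold higher and 1 lower. Aggrecan (Acan) read 18.9 in knockout, under the floor, and 64.9 in wild type. It was at least 1.55-fold lower, a bound that does not tell whether it passed 2-fold. Versican (Vcan), the main ADAMTS substrate of the limb bud, read 5804 in knockout and 4899.5 in wild type, a log2 ratio of 0.24, with ratios between 0.06 and 0.38 over its 4 probe sets. Fbln1, a fibulin that serves as cofactor for Adamts1, was the gene at least 2-fold lower. It read 1016 in knockout and 3172 in wild type (-1.64), with its 3 probe sets between -1.64 and -1.02. Lrp1, the receptor that clears ADAMTS and MMP proteins from the matrix, read 459 in knockout and 798 in wild type (-0.80).

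Of 4 proprotein convertases, which cut off the inhibitory prodomains, 0 passed 2-fold. Furin was at 0.11, and Pcsk5 read 562 in knockout and 829.8 in wild type (-0.56), with its 5 probe sets between -0.56 and 0.32. Of 7 detected genes that carry Adam10 and Adam17 to the cell surface, 0 passed 2-fold, with the tetraspanin Tspan14 at 0.04 and the rhomboid-like Rhbdf1 at -0.46. Of 4 detected tolloid and related genes 0 passed 2-fold, and Bmp1, which processes procollagen, read 457 in knockout and 872 in wild type (-0.93). Of 9 detected ADAM-shed ligands and receptors 1 was at least 2-fold higher, Kitl at 1.09, with its 3 probe sets between 0.23 and 1.09. Notch1 and Notch2 were at 0.45 and -0.35.

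In the plasmin system 5 genes were detected, of which 4 passed 2-fold, all of them higher in knockout, beside 4.15% higher of all detected genes. The tissue activator Plat read 772 in knockout and 221 in wild type (1.80), with 0.69 by its other probe set, and the urokinase gene Plau read 101 in knockout and 50.1 in wild type (1.01). Plasminogen itself (Plg), made by the liver, read 399.6 in knockout and 4.59 in wild type, under the floor, and was at least 9.70-fold higher. Serpinf2, the plasmin inhibitor of the plasma, was at least 13.8-fold higher. All 9 embryonic liver markers were at least 2-fold higher in knockout as well, 8 of them under the floor in wild type, with summed signals of 32621 in knockout and 148 in wild type; their part in the plasmin results was not tested.

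**Figure D4:**
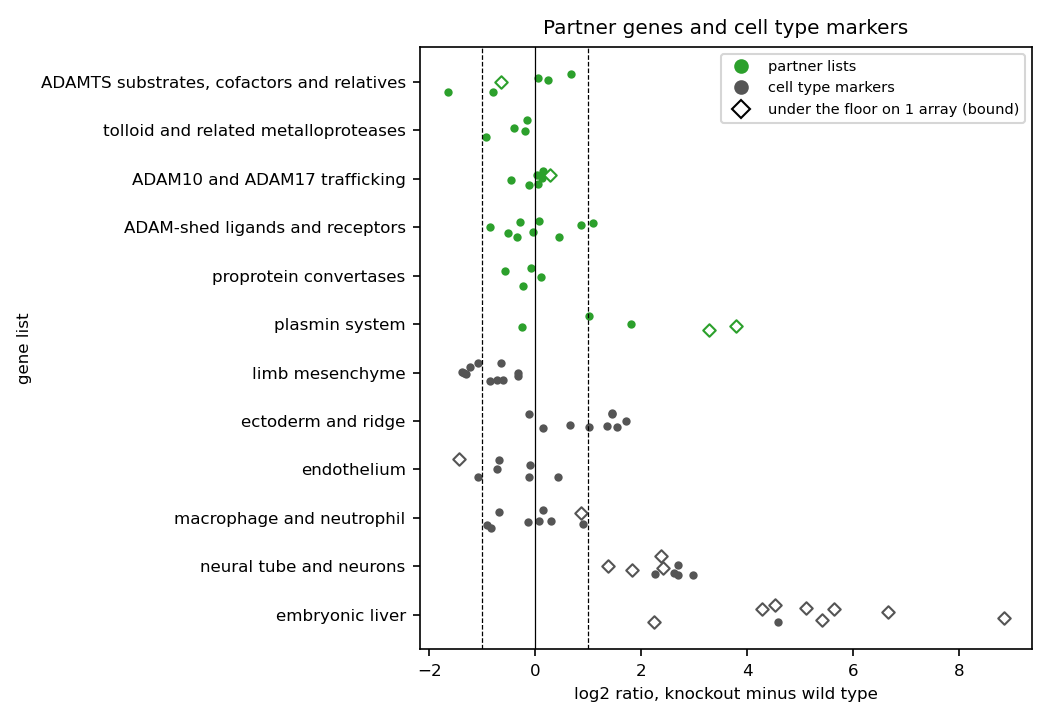
Log2 ratio (knockout minus wild type) of each detected gene of 6 lists of protease partners (green) and 6 lists of cell type markers (grey). Open diamonds are bounds where 1 array was under the floor and dashed lines are 2-fold differences; limb mesenchyme markers lie below 0, and neural and embryonic liver markers lie above the upper dashed line.

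Markers of several cell types, though not of all, differed between the arrays beside the protease genes. All 11 limb mesenchyme markers were lower in knockout, 5 of them at least 2-fold, with a median log2 ratio of -0.86 and summed signals of 20489.6 in knockout and 37019.8 in wild type. None was under the floor on either array. Of 9 ectoderm and ridge markers 6 passed 2-fold, all 6 higher, with summed signals of 10061 in knockout and 5969 in wild type. Of 7 skeletal muscle markers 6 were detected and 5 passed 2-fold, all higher, with summed signals of 3149 in knockout and 1888 in wild type. Actc1, the detected marker that did not pass, weighs heavily in these sums. It read 1067 in knockout and 1481 in wild type (-0.47). Myod1 was under the floor in wild type and Pax7 on both arrays. Of 7 somite, mesothelium and flank markers 6 were detected and 3 passed 2-fold, all higher, with summed signals of 3137 in knockout and 2484 in wild type. Pax9 was under the floor in wild type and Msln on both arrays. Of 7 endothelial markers 2 passed 2-fold, both lower, with summed signals of 4439 in knockout and 5405 in wild type. Of 5 red cell markers 4 were detected and 0 passed 2-fold, with a median log2 ratio of 0.14. Of 3 nerve crest and glia markers 0 passed 2-fold. Among these, Ngfr was at -0.57 and Sox10 at -0.72, and Foxd3 was under the floor in knockout. The part of these differences in the values of Mmp2, Adamts5, Adamts18 or any other member was not tested.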

How the data were processed

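Whole limb bud RNA of E10.5 Bhlha9 knockout and wild-type mouse embryos was read on Affymetrix Mouse Genome 430 2.0 arrays, 1 per genotype, after labelling of 200 ng of RNA, per the labels' protocols. The deposited values are signal intensities on a linear scale, summarised by the authors with MAS 5.0, per the series' design text.

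Control probe sets (64 of 45101) were set aside. Probe sets with several symbols (932) or unnamed here (9160) were not used for genes. All 71 members matched RefSeq genes by identifier, with 0 renamed. Signals under the floor were raised to it before log2, so a ratio with 1 array at the floor is a bound. The fold threshold was 2. A group of 1 array allows no p-value or SE, and the small number of arrays limits precision. The steps were tested on simulated data.

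Named genes were the TIMPs and Reck, members past 2-fold, the 4 of highest mean signal in each other family, and Adam10, Adam17, Mmp2, Mmp14, Adamts1, Adamts5, Adamts9 and Adamts20, with the rest given in groups by value. Members and lists were chosen with earlier results of these data known. A planned split by the zinc-binding motif of the proteins was not carried out, as no protein sequences were used here. Alternatives covered the floor, a pseudocount of 32, scaling, the probe set and the fold threshold. Software was R 4.3.3 (limma 3.58.1 for scaling), matplotlib 3.10.9, scipy 1.17.1, pandas 2.3.3, numpy 2.4.6 and Python 3.11.15.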

Additional observations from a re-analysis of the deposited data

How the results depend on the processing

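Of 195 recomputed counts and medians 160 stayed within 1.5 times the count or 1 measurement SD of the median, and 35 did not. Of 172 recomputed log2 ratios of named genes 164 stayed within 1 measurement SD, 8 moved further, and no ratio past 2-fold changed sign. Mmp2 stayed at least 2-fold lower under all 8 alternatives to the floor, scaling and probe set (-1.62 to -1.36), and Adamts18 at least 2-fold higher under the same 8 (1.03 to 2.83). Adamts5 passed 2-fold under 6 of them (-1.13 to -0.97), Adamts4 under 6 (-1.52 to -0.58) and Adamtsl2 under 6 of 7 (-1.31 to -0.91). With the floor at the 20th percentile, 1860 of all genes were higher and 1365 lower, with 9 and 8 members, among them 5 and 3 ADAM genes, 3 MMP genes higher and 1 inhibitor lower. At the 60th percentile, 160 of all genes were higher and 157 lower. Among members 1 was higher, an ADAMTS gene, and 2 were lower, of them 1 ADAMTS and 0 ADAMTS-like. The MMP median was -0.0079 at that floor. No ADAMTS-like median was possible, since no such gene was above that floor on both arrays. Counts at these floors are not shares, since the number of detected genes changes with the floor. With a pseudocount of 32 in place of the floor, 606 of all genes were higher and 336 lower. Among members 2 were higher and 2 lower, with 1 MMP gene higher, 1 ADAMTS gene lower and 0 ADAMTS-like genes lower. After loess normalization, and with the median over probe sets, 1 ADAMTS gene was lower. Of all genes, 642 were higher and 264 lower after loess normalization, and 475 were higher and 313 lower with the median over probe sets. At 1.5-fold, 1472 of all genes were higher and 1534 lower, with 2 members higher and 9 lower, by family 2 ADAMTS higher and 4 lower, 1 ADAM, 2 MMP and 1 inhibitor lower. At 3-fold, 175 of all genes were higher and 45 lower. Among members 1 was higher, the ADAMTS gene Adamts18, and 1 was lower, with 0 ADAMTS and 0 ADAMTS-like genes lower. Higher genes were 543 and lower genes 347 in the values reported. No paired analysis was possible because each genotype has 1 array. Signals near the floor limit the ratios of Adamts18, Adamts7, Adamtsl2 and the dim MMPs.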
